A study of Homo sapiens with 12 samples.

Results

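Autophagy receptors and regulators were followed here as a set of 10 genes, SQSTM1, NBR1, OPTN, BNIP3L, MAP1LC3B, GABARAPL1, ULK1, WIPI1, TFEB and DRAM1, chosen by symbol from a table of 40295 genes. All 10 were found, each under a single Ensembl identifier, with 64 to 32053 counts per library, and all 10 passed the filter on low counts. RNA sequencing covered 12 libraries of 2 human cancer cell lines. TOV-112D ovarian adenocarcinoma cells, which carry a mutant p53, received the vehicle DMSO (n = 2), UCI-1001 (n = 2) or UCI-1014 (n = 2) for 3 h. The study's methods give 10 µM for UCI-1001, while the concentration of UCI-1014 used for sequencing is not given in the sources used here. Both compounds are pyrimidine triones, and UCI-1014 carries a methoxy group where UCI-1001 has a nitro group. Saos-2 osteosarcoma cells were either the parental p53-null line (n = 3) or a derivative that expresses p53-WT from a stably integrated, doxycycline-inducible lentiviral construct (n = 3), and the labels of both lines state an induction of 16 h. A p53-WT library therefore differed from a p53-null library by the construct as well as by p53 itself. Nothing in the labels says that replicates came from separate cultures, so p-values measure the spread between these libraries, which may be technical. In bulk RNA, a change in the share of cells that express a gene and a change in RNA per cell cannot be told apart.

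Autophagy delivers cytoplasmic material to the lysosome inside a double membrane, the autophagosome. The ULK1 kinase starts the process, WIPI proteins read the lipid PI3P on the growing membrane, and small ubiquitin-like proteins of the ATG8 family (MAP1LC3B and GABARAPL1 among them) are attached to that membrane. Receptors such as SQSTM1 (p62), NBR1, OPTN and BNIP3L bind ATG8 proteins and bring ubiquitinated proteins or mitochondria into the autophagosome. TFEB is a transcription factor for autophagy and lysosome genes, and DRAM1 is a lysosomal membrane protein encoded by a p53 target gene. RNA levels do not measure the flow of material through the pathway.

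Libraries held 17762027 to 20717898 counts in TOV-112D cells and 19593655 to 24629558 in Saos-2 cells. Replicate 1 of each Saos-2 line stood apart: the chi-square of counts per degree of freedom was 22.1 to 37.0 for pairs that included it and 3.31 to 4.07 for the other pairs, so p53-WT results are also given without it. Among markers of bone-forming cells, SP7 had 0 counts in every Saos-2 library, IBSP at most 2, BGLAP at most 4 and ALPL at most 12, while RUNX2 was read at 94 to 256 counts and SPP1 at 289 to 1009. In the TOV-112D libraries RUNX2 had 92 to 170 counts, ALPL 32 to 49, SP7 1 to 7, BGLAP 2 to 6, SPP1 at most 11 and IBSP 0. Among epithelial and ovarian markers, KRT18 had 0 counts in every TOV-112D library, KRT8 1 to 10, PAX8 and MUC16 at most 1, CDH1 16 to 30, WT1 23 to 45 and EPCAM 34 to 57. KRT8 (4098 to 12822 counts), KRT18 (8068 to 12739), PAX8 (69 to 171) and WT1 (89 to 305) were all read higher in the Saos-2 libraries, against what the tissue labels would give for the keratins and PAX8. The part of these markers in the results was not tested.

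SQSTM1 (ENSG00000161011, GRCh38 chr5:179806398-179838078, plus strand), which encodes the receptor p62, rose with both compounds and with p53-WT. In TOV-112D cells it stood at 173 and 169 CPM (counts scaled to a common library size) with DMSO, 259 and 271 CPM with UCI-1001, and 515 and 579 CPM with UCI-1014. The 3 groups did not overlap. The rise was 1.55-fold for UCI-1001 (log2 fold change 0.63 ± 0.05 SE, edgeR adjusted p = 6.8e-05) and 3.20-fold for UCI-1014 (1.68 ± 0.05 SE, adjusted p = 8.4e-09). In Saos-2 cells the p53-null libraries held 582, 561 and 610 CPM and the p53-WT libraries 1410, 1220 and 1300 CPM, again without overlap. That rise was 2.25-fold (1.17 ± 0.10 SE, adjusted p = 4.9e-06) and remained at 1.11 on the log2 scale without replicate 1 of both lines.

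The SQSTM1 start region is shown because the gene rose in all 3 comparisons with a control and because 1 sequence pattern occurs there repeatedly. In the 2000 bases before the annotated RefSeq start at position 179820905 of chromosome 5, the pattern TGANTCAGC, of the antioxidant response element type, was found 3 times when both strands were searched. Each match was read below on the plus strand, 5′ to 3′, with the match in capitals, from the GRCh38 genome. All 3 lie inside the annotated SQSTM1 gene and outside any annotated exon, at 1798, 1320 and 352 bases before that start.
SQSTM1 chr5:179819077-179819145: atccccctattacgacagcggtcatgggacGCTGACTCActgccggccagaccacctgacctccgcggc
SQSTM1 chr5:179819555-179819623: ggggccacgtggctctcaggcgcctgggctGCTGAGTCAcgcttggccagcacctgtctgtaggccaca
SQSTM1 chr5:179820523-179820591: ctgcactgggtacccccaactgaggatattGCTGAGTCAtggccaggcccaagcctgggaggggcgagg
Of 35116 windows of the same length before RefSeq starts, 6.78% held at least 1 match to this pattern and 0.0683% held 3 or more. The windows before the 2 other SQSTM1 starts held 0 matches. A match describes the letters only and says nothing of whether a factor binds there.

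NBR1 (ENSG00000188554, chr17:43170481-43211689, plus strand) encodes a receptor that works beside p62. It read 65.9 and 73.0 CPM with DMSO, 82.1 and 91.3 CPM with UCI-1001, and 115 and 114 CPM with UCI-1014, with no overlap between the groups. The log2 fold change was 0.32 ± 0.06 (SE, adjusted p = 0.00915) for UCI-1001 and 0.72 ± 0.06 (SE, adjusted p = 8.9e-06) for UCI-1014. The UCI-1001 call was lost without DMSO replicate 1 (0.25, adjusted p = 0.12), without UCI-1001 replicate 2 (0.24, adjusted p = 0.0771) and with all 12 libraries in 1 fit (0.30, adjusted p = 0.232). In Saos-2 cells, 116, 127 and 127 CPM without p53 stood against 135, 153 and 150 CPM with p53-WT. Those groups did not overlap, but the difference of 0.25 ± 0.10 (SE) missed the threshold at adjusted p = 0.0504. It passed in 7 of 14 alternatives: without p53-WT replicate 1 (0.30, adjusted p = 0.0126), without replicate 1 of both lines (0.26, adjusted p = 0.00114), with RLE scaling, DESeq2, the length offset, the replicate block or all 12 libraries in 1 fit (0.25 to 0.29, adjusted p = 0.0143 to 0.037).

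OPTN (ENSG00000123240, chr10:13099449-13138308, plus strand) encodes optineurin, a receptor for ubiquitinated bacteria and damaged mitochondria. It lay between 57.7 and 62.2 CPM in all 6 TOV-112D libraries. The differences from DMSO were 0.03 (95% confidence interval −0.10 to 0.15) for UCI-1001 and −0.03 (−0.16 to 0.09) for UCI-1014 on the log2 scale, with adjusted p of 0.806 and 0.667. In Saos-2 cells OPTN rose from 44.3, 39.1 and 40.5 CPM to 99.2, 94.3 and 90.5 CPM with p53-WT, a 2.29-fold difference without overlap (1.20 ± 0.10 SE, adjusted p = 4.3e-06). Without replicate 1 of both lines it was 1.22.

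BNIP3L (ENSG00000104765, chromosome 8, plus strand) encodes NIX, a receptor on the outer mitochondrial membrane. It read 57.4 to 66.2 CPM over the 6 TOV-112D libraries, and each treated group overlapped DMSO. Its log2 fold change was −0.08 (95% confidence interval −0.22 to 0.06, adjusted p = 0.47) for UCI-1001 and 0.01 (−0.13 to 0.15, adjusted p = 0.917) for UCI-1014. In Saos-2 cells 65.9, 56.8 and 54.0 CPM without p53 stood against 57.4, 77.9 and 78.3 CPM with p53-WT. The groups overlapped through the library of p53-WT replicate 1, and the difference of 0.27 ± 0.14 (SE) did not pass (adjusted p = 0.115). Without p53-WT replicate 1 it passed at 0.41 (adjusted p = 0.00646), without replicate 1 of both lines at 0.50 (adjusted p = 5.2e-05) and with the length offset at 0.36 (adjusted p = 0.0236).

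Of the ATG8 family, MAP1LC3B (ENSG00000140941, chr16:87383953-87404779, plus strand) encodes LC3B, the protein commonly used to mark autophagosomes. It stood at 74.0 and 72.3 CPM with DMSO, 99.1 and 102 CPM with UCI-1001, and 213 and 202 CPM with UCI-1014. No treated library reached down to its control. The rise was 1.38-fold with UCI-1001 (0.46 ± 0.05 SE, adjusted p = 0.00016) and 2.83-fold with UCI-1014 (1.50 ± 0.04 SE, adjusted p = 4.9e-09). With p53-WT it did not pass: the p53-null libraries held 169, 155 and 144 CPM and the p53-WT libraries 153, 161 and 162 CPM. These overlapped, and the interval of the difference ran from −0.20 to 0.24 around 0.02 (adjusted p = 0.86). It was 0.11 (adjusted p = 0.0993) without replicate 1 of both lines. The near-identical copy MAP1LC3B2 had 0 to 8 counts per library, so few reads were assigned to it.

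GABARAPL1 (ENSG00000139112, chr12:10212458-10223128, plus strand) encodes an ATG8 protein of the GABARAP branch. Its values were 16.8 and 16.8 CPM with DMSO, 22.2 and 22.9 CPM with UCI-1001, and 37.1 and 36.8 CPM with UCI-1014, in 3 separate ranges. The gene rose by 0.43 ± 0.07 (SE, log2 scale, adjusted p = 0.00325) with UCI-1001 and by 1.14 ± 0.07 (SE, adjusted p = 5.5e-07) with UCI-1014. The UCI-1001 call was lost with the length offset (0.34, adjusted p = 0.107) and with all 12 libraries in 1 fit (0.40, adjusted p = 0.0607). In Saos-2 cells 62.8, 64.2 and 65.0 CPM stood against 79.9, 83.2 and 71.4 CPM with p53-WT, without overlap, and the rise of 0.29 ± 0.10 (SE) passed at adjusted p = 0.028. That call was lost with no filter on low counts (0.28, adjusted p = 0.0565), without p53-null replicate 2 (0.30, adjusted p = 0.0779), without p53-null replicate 3 (0.31, adjusted p = 0.0665) and without p53-WT replicate 2 (0.25, adjusted p = 0.0988), whereas without replicate 1 of both lines it stood at 0.26 (adjusted p = 0.011).

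**Figure D1:**
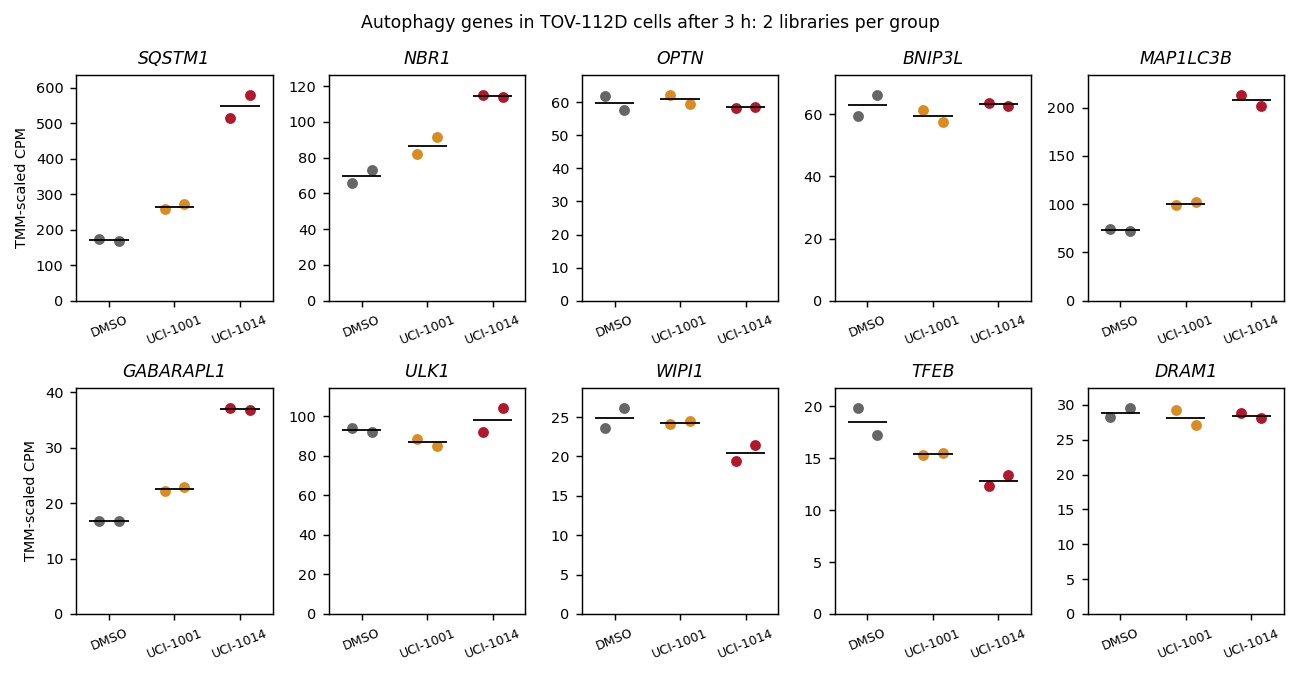
Each panel plots 1 gene in the 6 TOV-112D libraries as TMM-scaled CPM (vertical axis from 0) by treatment, with a point per library and a line at the group mean. SQSTM1, NBR1, MAP1LC3B and GABARAPL1 stand higher in both UCI-1014 libraries than in both DMSO libraries, TFEB and WIPI1 stand lower, and OPTN, BNIP3L and DRAM1 overlap.

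ULK1 (ENSG00000177169, chr12:131894622-131923150, plus strand), the kinase that starts autophagosome formation, read 94.2 and 92.0 CPM with DMSO, 88.4 and 85.1 CPM with UCI-1001, and 91.9 and 104 CPM with UCI-1014. Neither difference from DMSO passed: −0.10 ± 0.06 (SE, adjusted p = 0.308) for UCI-1001 and 0.08 ± 0.06 (SE, adjusted p = 0.335) for UCI-1014. Without UCI-1014 replicate 1 the latter passed at 0.16 (adjusted p = 0.0412). In Saos-2 cells ULK1 rose 3.56-fold, from 25.7, 31.6 and 33.0 CPM to 108, 106 and 107 CPM with p53-WT (1.83 ± 0.12 SE, adjusted p = 6.3e-07). The p53-WT libraries lay within 2 CPM of each other, far above the p53-null range, and the value without replicate 1 of both lines was 1.72.

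WIPI1 (ENSG00000070540, chr17:68420948-68457513, minus strand) encodes a PI3P-binding protein of the growing membrane. It read 23.6 and 26.1 CPM with DMSO, 24.1 and 24.5 CPM with UCI-1001, and 19.4 and 21.5 CPM with UCI-1014. UCI-1001 lay within the DMSO range (−0.03 ± 0.08 SE, adjusted p = 0.845), and with UCI-1014 the gene fell (−0.28 ± 0.08 SE, adjusted p = 0.0207) with no overlap. The fall lost its call without DMSO replicate 2 (−0.20, adjusted p = 0.152) and without UCI-1014 replicate 1 (−0.21, adjusted p = 0.127), as well as under DESeq2 (−0.27, adjusted p = 0.0627) and with the length offset (−0.25, adjusted p = 0.0886). In Saos-2 cells WIPI1 rose from 12.1, 12.8 and 13.4 CPM to 19.2, 19.4 and 17.2 CPM without overlap (0.54 ± 0.11 SE, adjusted p = 0.0018). Without replicate 1 of both lines the difference was 0.48.

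TFEB (ENSG00000112561, chr6:41683978-41736259, minus strand), the transcription factor, was lowered by UCI-1014 and raised in p53-WT cells. With DMSO it stood at 19.8 and 17.2 CPM, with UCI-1001 at 15.3 and 15.5 CPM and with UCI-1014 at 12.3 and 13.4 CPM, in 3 ranges that did not overlap. The fall passed the test with UCI-1014 (−0.52 ± 0.10 SE, adjusted p = 0.00169), while the value with UCI-1001 (−0.27 ± 0.10 SE, adjusted p = 0.0992) did not. In Saos-2 cells the p53-null libraries held 2.95, 3.41 and 3.33 CPM and the p53-WT libraries 7.33, 5.74 and 6.36 CPM. That 2.00-fold rise passed (1.00 ± 0.16 SE, adjusted p = 0.00039) and was 0.85 without replicate 1 of both lines.

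DRAM1 (ENSG00000136048, chr12:101877580-102012130, plus strand) had the largest difference of the 10 genes between p53-WT and p53-null. The p53-null libraries read 10.6, 10.9 and 10.7 CPM and the p53-WT libraries 104, 107 and 106 CPM, a 9.84-fold rise (3.30 ± 0.10 SE, adjusted p = 1.0e-08) that was 3.31 without replicate 1 of both lines. In TOV-112D cells DRAM1 stood between 27.1 and 29.5 CPM in all 6 libraries, with the groups overlapping. The interval of its log2 difference from DMSO was −0.19 to 0.12 for UCI-1001 (adjusted p = 0.794) and −0.17 to 0.13 for UCI-1014 (adjusted p = 0.844).

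The DRAM1 start region is shown beside that of GABARAPL1, since DRAM1 rose with p53-WT and not with either compound. GABARAPL1 was called higher in all 3 comparisons, though its calls with UCI-1001 and p53-WT were lost in some alternatives, as given above. The 2000 bases before the DRAM1 RefSeq start at position 101877580 of chromosome 12 held 2 matches to the p53 half-site, at 1862 and 1694 bases before the start. The window before the GABARAPL1 start at position 10212877 of the same chromosome held 3 matches to the pattern TCANGTGA, the E-box type read by TFEB and its relatives. The DRAM1 window held 2 matches to the E-box type as well, and the GABARAPL1 window held 1 p53 half-site and 1 ATF4 element, so the windows do not divide by pattern. Of the GABARAPL1 matches, the one 1071 bases before the start is printed because it holds the palindromic core of that box. None of the 3 printed stretches overlaps an annotated gene. Sequences are from the plus strand of GRCh38, 5′ to 3′, with the match in capitals.
DRAM1 chr12:101875688-101875757: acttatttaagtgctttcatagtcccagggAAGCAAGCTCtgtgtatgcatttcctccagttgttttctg
DRAM1 chr12:101875856-101875925: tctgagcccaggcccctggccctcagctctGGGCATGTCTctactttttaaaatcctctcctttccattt
GABARAPL1 chr12:10211776-10211843: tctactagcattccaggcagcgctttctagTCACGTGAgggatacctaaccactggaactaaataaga
Both patterns are common: 40.2% of the 35116 windows held a p53 half-site and 41.5% held the E-box type. Over the 15 windows of the 9 genes with a RefSeq start in the table, the heat shock element, built of alternating GAA and TTC units, had 0 matches (3.04% of all windows held it). NBR1, OPTN, ULK1 and TFEB windows had 0 matches to any of the 5 patterns searched, which included the ATF4 element TGATGNAA (26.3% of all windows). The matches were looked up after the expression values were known and are a description of letters.

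**Figure D2:**
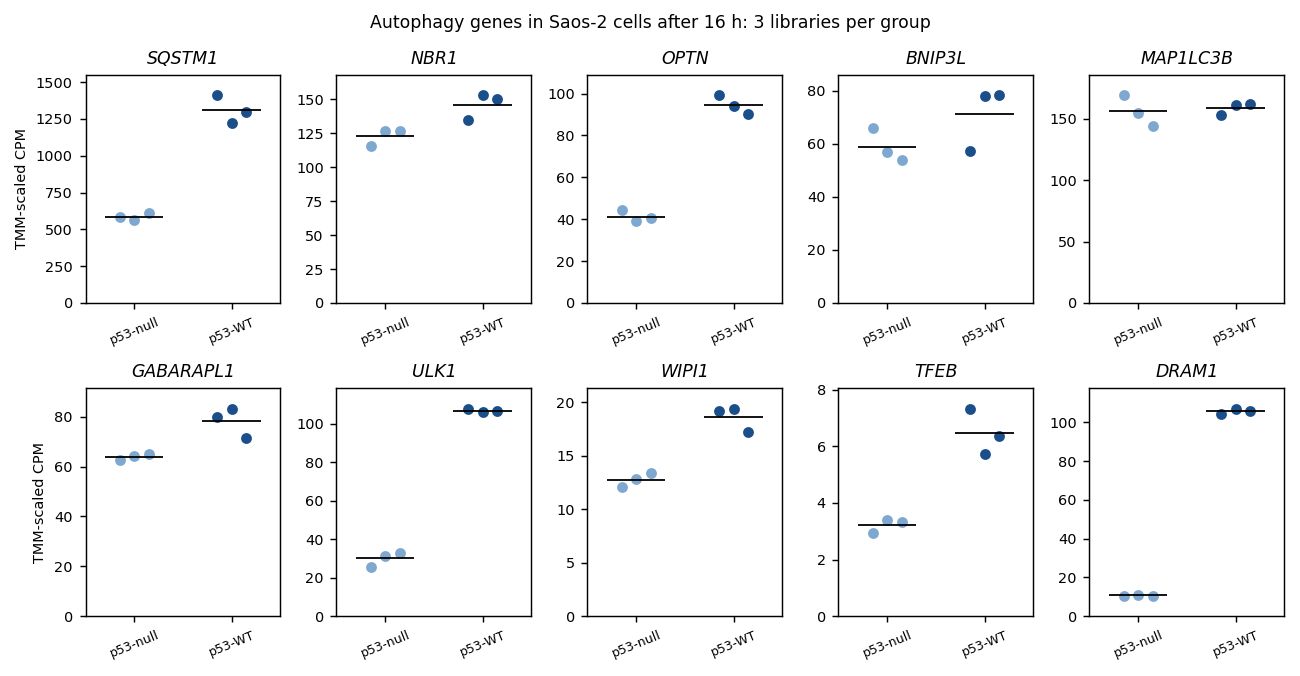
Each panel plots 1 gene in the 6 Saos-2 libraries as TMM-scaled CPM (vertical axis from 0), p53-null against p53-WT, with a point per library and a line at the group mean. BNIP3L and MAP1LC3B overlap between the lines, and DRAM1 shows the widest gap, 10.7 CPM against 106 CPM in the means.

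Counted over the set, 4 of the 10 genes rose and 0 fell with UCI-1001 (median log2 fold change −0.002), where 7.76% of all 14980 genes tested rose and 5.22% fell (median −0.002). With UCI-1014, 4 of 10 rose and 2 fell (median 0.04), against 22.7% and 21.5% of all genes tested (median −0.013). The share that fell with UCI-1014 was close to that of all genes. Both comparisons use the same DMSO libraries, so their values stand side by side and are not independent. With p53-WT, 7 of 10 rose and 0 fell (median 0.77), against 32.9% and 32.1% of 15072 genes (median −0.014). Without replicate 1 of both Saos-2 lines, 9 of 10 rose, against 36.8% of all genes tested in that fit. With all 12 libraries in 1 fit the UCI-1001 count was 2 of 10, SQSTM1 and MAP1LC3B, against 1.46% of all genes that rose.

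**Figure D3:**
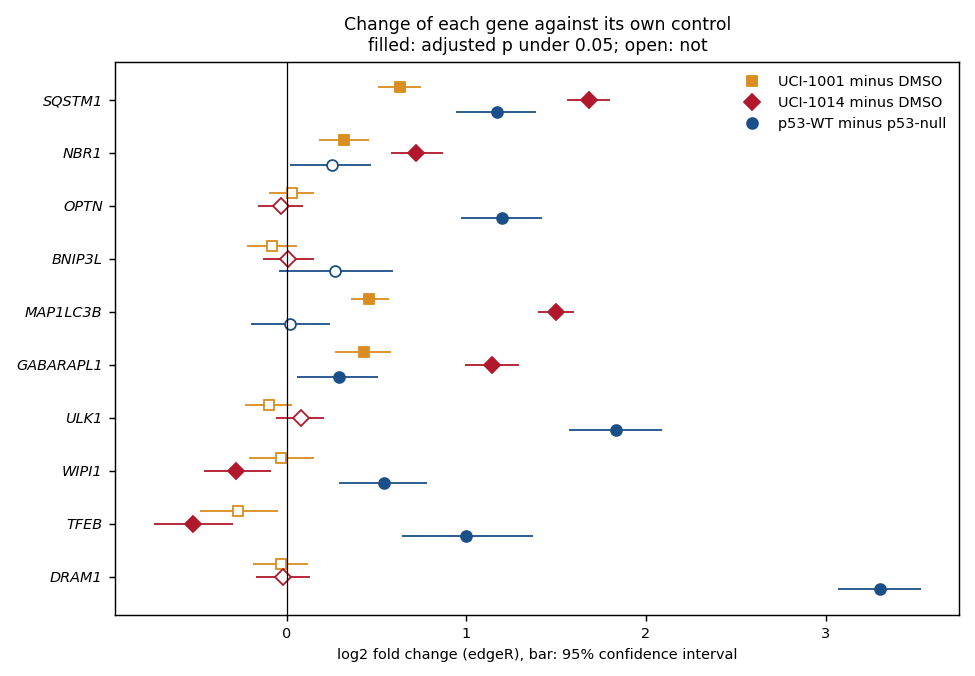
The log2 fold change of each gene (horizontal axis) is drawn with its 95% confidence interval for UCI-1001 minus DMSO, UCI-1014 minus DMSO and p53-WT minus p53-null, filled where adjusted p was under 0.05. MAP1LC3B lies at 1.50 for UCI-1014 and 0.02 for p53-WT, while DRAM1 lies at −0.02 and 3.30.

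The 2 compounds were also set against each other directly, as 1 pair and with the reservation that their doses cannot be matched from the sources used here. SQSTM1 stood 2.07-fold higher with UCI-1014, the methoxy compound, than with UCI-1001, the nitro compound (1.05 ± 0.05 SE, adjusted p = 7.1e-07). MAP1LC3B stood 2.06-fold higher (1.04 ± 0.04 SE, adjusted p = 2.5e-07), GABARAPL1 1.64-fold higher (0.71 ± 0.06 SE, adjusted p = 3.1e-05) and NBR1 1.32-fold higher (0.40 ± 0.06 SE, adjusted p = 0.0009). ULK1 was 0.18 ± 0.06 (SE) higher at adjusted p = 0.0487. The ULK1 call was lost without UCI-1001 replicate 1 (0.20, adjusted p = 0.0966), without UCI-1001 replicate 2 (0.15, adjusted p = 0.189) and without UCI-1014 replicate 2 (0.08, adjusted p = 0.354), and with the length offset (0.04), the replicate block (0.18) or all 12 libraries in 1 fit (0.13), at adjusted p of 0.754, 0.0811 and 0.577. The NBR1 call was lost with all 12 libraries in 1 fit (0.36, adjusted p = 0.0567). So 5 of 10 genes were higher and 0 lower, where 16.2% of all genes were higher and 11.4% lower. WIPI1 (−0.24, 95% confidence interval −0.43 to −0.06, adjusted p = 0.0509) and TFEB (−0.26, −0.48 to −0.03, adjusted p = 0.0868) missed the threshold, and WIPI1 passed it without UCI-1014 replicate 2 (−0.33, adjusted p = 0.0406), with no filter on low counts (−0.25, adjusted p = 0.0329) and with the replicate block (−0.25, adjusted p = 0.0433). For the remaining genes the interval ran from −0.18 to 0.06 for OPTN, −0.05 to 0.23 for BNIP3L and −0.14 to 0.17 for DRAM1.

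Whether a compound moved a gene differently from p53-WT was tested as the difference of the 2 changes in a fit of all 12 libraries, a test added after the changes had been seen. It compares a compound for 3 h in TOV-112D cells with an induced construct at 16 h in Saos-2 cells, so agent, time and cell line cannot be told apart. For UCI-1014, 9 of 10 genes differed, where 50.9% of 16803 genes did. The difference keeps the sign of each log2 change. For MAP1LC3B the change was higher with UCI-1014 than with p53-WT (difference 1.41 ± 0.11 SE, adjusted p = 5.2e-07). The same held for GABARAPL1 (0.78 ± 0.12 SE, adjusted p = 0.00012), SQSTM1 (0.44 ± 0.12 SE, adjusted p = 0.00893) and NBR1 (0.41 ± 0.13 SE, adjusted p = 0.0179). The reverse held for DRAM1 (−3.39 ± 0.11 SE), ULK1 (−1.83 ± 0.15 SE), TFEB (−1.60 ± 0.19 SE), OPTN (−1.30 ± 0.12 SE) and WIPI1 (−0.88 ± 0.14 SE). For UCI-1001, 7 of 10 genes differed, where 47.6% of all genes did. The change of MAP1LC3B was higher with the compound (0.41 ± 0.11 SE, adjusted p = 0.0101). For SQSTM1, DRAM1, ULK1, TFEB, OPTN and WIPI1 it was lower with the compound than with p53-WT (−0.57 for SQSTM1 to −3.36 for DRAM1). SQSTM1 thus differed in opposite directions for the compounds. BNIP3L did not pass for either (−0.39 and −0.34, adjusted p = 0.113 and 0.159), but did without replicate 1 of both Saos-2 lines (−0.55 and −0.46, adjusted p = 0.00013 and 0.00045).

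With neither a compound nor p53-WT, the 2 cell lines held different levels of 9 of the 10 genes. TOV-112D cells with DMSO were compared with p53-null Saos-2 cells. These groups differ in tissue of origin, in p53 (a mutant against none), in the vehicle and in culture medium. They also differ in the labelled time, 3 h against 16 h, so these differences cannot be told apart. TFEB was 5.32-fold higher in TOV-112D cells (18.0 ± 1.86 CPM, SD, n = 2, against 3.38 ± 0.271 CPM, n = 3; log2 difference 2.41 ± 0.13 SE, adjusted p = 3.5e-09). ULK1 (1.53), DRAM1 (1.32), WIPI1 (0.85) and OPTN (0.43) were higher there as well. GABARAPL1 was 4.09-fold lower (16.3 ± 0.0245 CPM against 66.9 ± 1.43 CPM; −2.03 ± 0.09 SE, adjusted p = 4.5e-10), and SQSTM1 (−1.87), MAP1LC3B (−1.20) and NBR1 (−0.93) were lower too. BNIP3L did not differ beyond its spread (−0.01, 95% confidence interval −0.30 to 0.28), but it passed as lower in TOV-112D cells with the length offset (−0.29, adjusted p = 0.0327). With 5 of 10 higher and 4 of 10 lower, the set lay near all 16803 genes, of which 37.0% were higher and 37.0% lower. Without p53-null replicate 1 the counts were also 5 and 4.

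Levels of different genes were compared as TPM, a share of all transcripts in which reads are divided by transcript length. SQSTM1 ranked first in all 5 groups, at 154 ± 1.46 TPM with DMSO, 241 ± 5.96 with UCI-1001, 483 ± 30.9 with UCI-1014 (SD, n = 2 each), 438 ± 61.5 in p53-null and 875 ± 75.7 in p53-WT cells (SD, n = 3 each). The range of p53-null libraries (375 to 498 TPM) overlapped that of UCI-1014 (462 to 505 TPM). TFEB ranked last in all 5 groups, from 2.30 ± 0.157 TPM in p53-null cells to 13.5 ± 1.61 TPM with DMSO, where its range overlapped that of DRAM1, the next gene up.

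The order between these ends changed with the group. With DMSO, OPTN (52.0 and 54.1 TPM) stood above MAP1LC3B (47.6 and 48.3 TPM), and with UCI-1014 MAP1LC3B (129 ± 7.76 TPM) stood above OPTN (50.7 ± 3.67 TPM), in each case without overlap. GABARAPL1 moved from rank 8 with DMSO (17.2 ± 1.19 TPM) to rank 5 with UCI-1014 (37.0 ± 2.86 TPM). In TPM, unlike in CPM, its p53-null libraries (45.7 to 53.9 TPM) overlapped its p53-WT libraries (50.9 to 60.3 TPM). DRAM1 was at rank 9 in p53-null cells at 7.31 ± 1.82 TPM, overlapping ULK1 (8.14 to 11.1 TPM), and at rank 6 with p53-WT at 43.9 ± 5.14 TPM, where its range overlapped those of NBR1 (46.6 ± 5.85 TPM) and BNIP3L (39.0 ± 2.29 TPM). BNIP3L kept to 32.1 to 39.0 TPM in the means of all 5 groups.

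**Figure D4:**
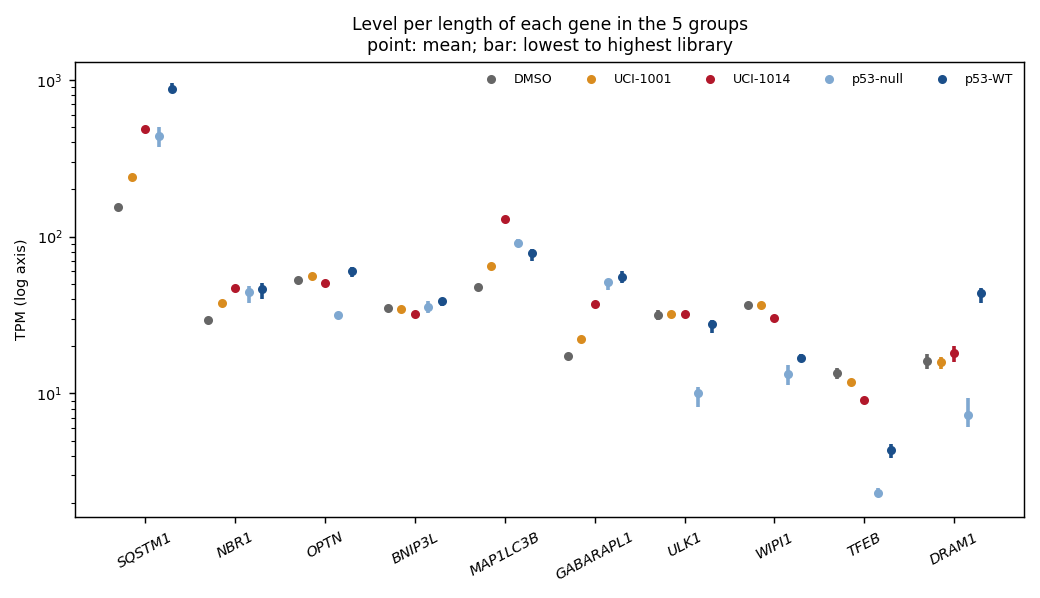
Levels of the 10 genes in TPM (log axis) are drawn for the 5 groups, with a point at the mean and a bar from the lowest to the highest library. SQSTM1 lies above the other 9 genes in every group, from 154 TPM with DMSO to 875 TPM with p53-WT, and TFEB lies lowest in every group.

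Of the 5 SQSTM1 transcripts that took at least 10% in some library, 3 lay in separate ranges in the 2 cell lines and 2 overlapped. The protein-coding SQSTM1-213 took 22.4% to 30.5% of SQSTM1 TPM in the 6 TOV-112D libraries and 1.00% to 10.7% in the 6 Saos-2 libraries. SQSTM1-202, the reference transcript, took 15.9% to 17.6% and 20.6% to 32.1%, and the retained-intron SQSTM1-206 took 4.93% to 8.06% and 10.8% to 20.0%. SQSTM1-201, with the largest median share in both lines, overlapped (35.5% to 41.2% and 35.4% to 52.4%), as did the short SQSTM1-216 (1.28% to 8.89% and 0.104% to 20.1%). Within TOV-112D cells the DMSO libraries gave SQSTM1-213 23.3% and 25.9%, against 25.0% and 22.4% with UCI-1001 and 25.7% and 30.5% with UCI-1014. The reference transcript of TFEB, TFEB-204, took 77.0% to 93.4% of TFEB TPM in TOV-112D libraries and 27.7% to 68.1% in Saos-2 libraries. These transcripts share most of their sequence, were named after their values were seen and are given without a test.

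Beyond the 10 genes, a list of other autophagy and lysosome genes was followed, of which 110 were in the table. With UCI-1001, 30 of the 103 tested rose and 1 fell (median log2 fold change 0.12), beside the shares of all genes given above. With UCI-1014, 60 of 103 rose and 6 fell (median 0.24). With p53-WT, 49 of 104 rose and 23 fell (median 0.20), and 54 rose and 26 fell without replicate 1 of both lines, where 36.8% and 35.7% of all genes did. The UCI-1001 count shrank without DMSO replicate 1 (13 rose, 1 fell), DMSO replicate 2 (14 and 0) or UCI-1001 replicate 2 (16 and 0). The shares of all genes that rose shrank in the same fits, from 7.76% to 3.30%, 3.58% and 3.78%.

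The role counts stand beside these shares of all genes: 7.76% rose and 5.22% fell with UCI-1001, and 22.7% and 21.5% with UCI-1014. With p53-WT the shares were 32.9% and 32.1%. By role, lysosome genes made up the largest group. Of 29 tested, 15 rose with UCI-1001 (median 0.14), and 22 rose and 2 fell with UCI-1014 (median 0.37). With p53-WT, 17 rose and 7 fell (median 0.49). Relatives of TFEB and the regulators around them counted 7 of 12 risen with UCI-1001, 6 of 12 with UCI-1014 (2 fell) and 2 of 12 with p53-WT (3 fell). The class III PI3-kinase complex, which makes PI3P, had 0 of 8 changed with UCI-1001, 5 of 8 risen with UCI-1014, and 3 risen and 2 fallen with p53-WT. Of 10 genes of the conjugation machinery, which attaches ATG8 proteins to membranes, 2 rose with UCI-1001, 6 rose with UCI-1014, and 3 rose and 5 fell with p53-WT. Other receptors counted 2 of 17 risen with UCI-1001, 7 of 17 risen and 2 fallen with UCI-1014, and 8 of 15 risen and 2 fallen with p53-WT. The remaining roles were smaller: with UCI-1014, 3 of 4 ULK1 partners, 4 of 9 membrane supply genes, 4 of 9 fusion genes, 2 of 3 other p53-linked genes and 1 of 2 other ATG8 genes rose. In the same order, 2 of 4, 1 of 9, 1 of 9, 0 of 3 and 0 of 2 rose with UCI-1001, and 1 other p53-linked gene fell. With p53-WT, 1 of 4, 4 of 9, 6 of 10, 3 of 4 and 2 of 3 rose. Falls with p53-WT were 1 ULK1 partner, 2 membrane supply genes and 1 other p53-linked gene. Some role counts lay near the shares of all genes, such as the class III PI3-kinase complex with p53-WT (37.5% risen, 25.0% fallen). Others did not, such as lysosome genes with UCI-1014 (75.9% risen, 6.9% fallen). Without replicate 1 of both Saos-2 lines, 36.8% of all genes rose and 35.7% fell. In that fit the p53-WT counts were 17 risen and 8 fallen of 29 lysosome genes, and 5 and 4 of 13 TFEB relatives and regulators. They were 5 and 2 of 8 for the class III PI3-kinase complex, 3 and 6 of 10 for conjugation, and 8 and 2 of 15 for other receptors.

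Among these other genes, RRAGC, PIP4P1 and FNIP1 rose most with UCI-1001, and FNIP1, RRAGC and GLA with UCI-1014. RRAGC, a GTPase that brings mTORC1 to the lysosome, went from 36.4 and 34.3 CPM with DMSO to 68.4 and 74.3 CPM with UCI-1001 (1.01 ± 0.07 SE, adjusted p = 1.9e-05) and 136 and 121 CPM with UCI-1014 (1.86 ± 0.07 SE, adjusted p = 2.4e-08). FNIP1, a partner of folliculin, which acts on RRAGC, went from 46.3 and 48.2 CPM to 76.1 and 83.9 CPM (0.76 ± 0.07 SE) and to 185 and 169 CPM (1.91 ± 0.06 SE, adjusted p = 9.1e-09). PIP4P1, a lysosomal membrane phosphatase, rose by 0.88 ± 0.05 (SE) with UCI-1001, and GLA, the lysosomal alpha-galactosidase, rose by 1.67 ± 0.06 (SE) with UCI-1014, from 34.8 and 33.9 CPM to 114 and 106 CPM. With p53-WT, RRAGC rose (0.72 ± 0.13 SE) while GLA (−1.25 ± 0.14 SE) and PIP4P1 (−0.62 ± 0.12 SE) fell, and FNIP1 did not pass (−0.30 ± 0.14 SE, adjusted p = 0.0958). These stood at 0.86, −1.24, −0.67 and −0.15 without replicate 1 of both lines, with the same calls.

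The named falls with the compounds lay between −0.36 and −0.20. TP53INP2, which binds ATG8 proteins, fell with UCI-1001 from 35.2 and 39.7 CPM to 29.5 and 28.8 CPM (−0.36 ± 0.08 SE, adjusted p = 0.0125). That call was lost without DMSO replicate 2 (−0.27, adjusted p = 0.121) or UCI-1001 replicate 2 (−0.34, adjusted p = 0.0813), with the length offset (−0.24, adjusted p = 0.179) and with all 12 libraries in 1 fit (−0.38, adjusted p = 0.294). With UCI-1014 the 3 largest falls that met the naming rule were TEX264, a receptor for the endoplasmic reticulum (−0.24), CTSF, a lysosomal protease (−0.20), and RPTOR, a subunit of mTORC1 (−0.20), with adjusted p of 0.0169, 0.0494 and 0.0114. TEX264 and CTSF lost their calls when any 1 of the 4 libraries was left out (−0.27 to −0.22 for TEX264 and −0.25 to −0.17 for CTSF), and RPTOR lost it without DMSO replicate 1 (−0.15, adjusted p = 0.12) or UCI-1014 replicate 1 (−0.16, adjusted p = 0.0708).

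With p53-WT the leading rises were TP53INP1, a p53 target that binds ATG8 proteins, TIGAR, a p53 target that acts on sugar metabolism, and CALCOCO1, a receptor. TP53INP1 went from 9.28, 8.57 and 8.15 CPM to 331, 530 and 530 CPM, which is 53.5-fold (5.74 ± 0.21 SE, adjusted p = 2.1e-08). TIGAR went from 48.5, 40.0 and 38.0 CPM to 329, 376 and 367 CPM (3.08 ± 0.13 SE), and CALCOCO1 from 33.4, 28.9 and 29.0 CPM to 186, 151 and 155 CPM (2.43 ± 0.12 SE). The groups of these 3 genes were far apart in every library. The leading falls were PRKAA2, a catalytic subunit of AMP-activated kinase (−1.75 ± 0.21 SE, adjusted p = 5.2e-05), GLA, and ATG4C, a protease that processes ATG8 proteins (−0.91 ± 0.22 SE, adjusted p = 0.00496). Without replicate 1 of both lines TP53INP1 was at 5.99, TIGAR at 3.26, CALCOCO1 at 2.40, PRKAA2 at −1.52 and ATG4C at −0.53, all still called. TIGAR rose with UCI-1014 as well (0.37 ± 0.10 SE, adjusted p = 0.0111) and was not called with UCI-1001 (0.12 ± 0.10 SE, adjusted p = 0.49). CALCOCO1 was called with neither UCI-1001 (0.25 ± 0.08 SE, adjusted p = 0.0731) nor UCI-1014 (0.22 ± 0.08 SE, adjusted p = 0.0602). TP53INP1 had 0 to 3 counts per TOV-112D library and was not tested with the compounds.

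**Figure D5:**
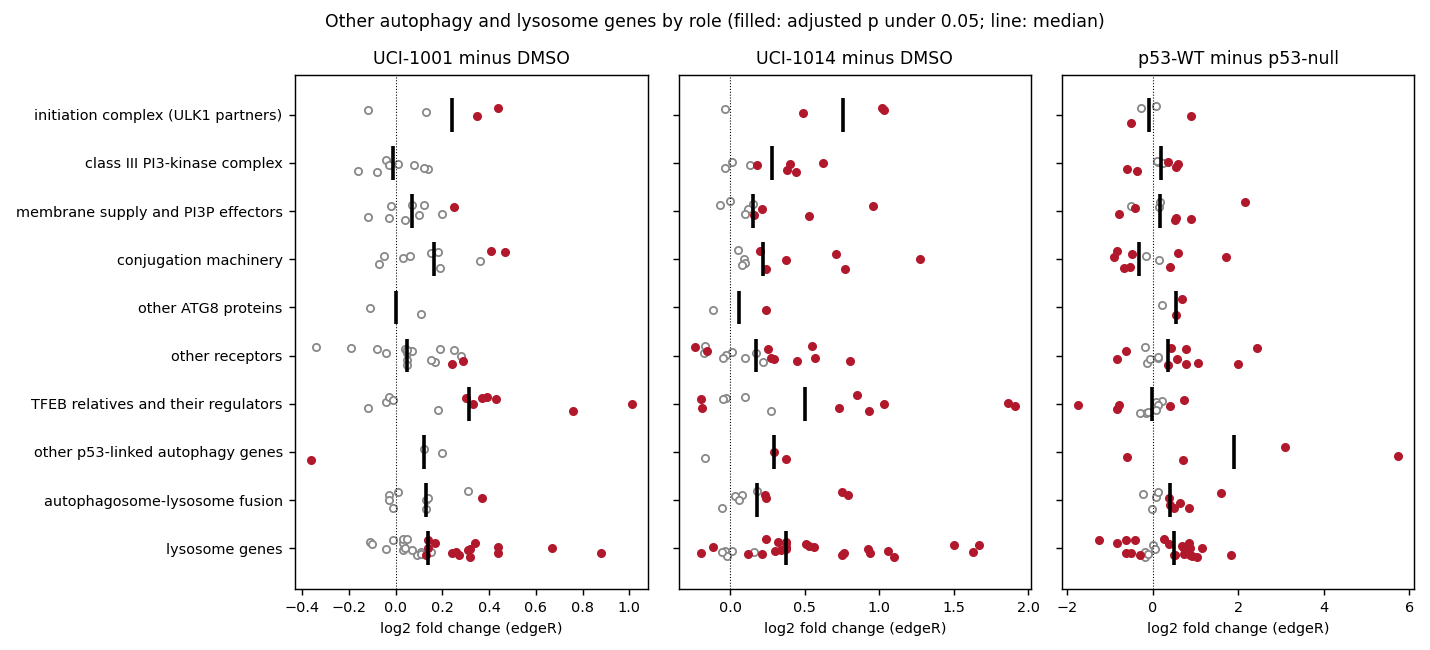
Each point is 1 of the other autophagy and lysosome genes, placed by its log2 fold change (horizontal axes, scaled separately) and its role (vertical axis), filled where adjusted p was under 0.05, with a line at the median of the role. Lysosome genes have medians of 0.14, 0.37 and 0.49 in the 3 panels, and the point at 5.74 in the right panel is TP53INP1.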

How the data were processed

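Total RNA was sequenced from 12 libraries. Per the submitters' processing notes, the authors quantified reads against GRCh38 with kallisto 0.48.0, summed estimated transcript counts per Ensembl gene and rounded or cut them to whole numbers, which is the deposited table of counts used here. The authors also used DESeq2 1.38.3. Deposited kallisto tables gave each transcript's estimated count and its TPM, and TPM was summed here over the transcripts of a gene. Replicates were not pooled by the authors.

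Rows with the same symbol were summed. Groups were compared with the quasi-likelihood test of edgeR 4.0.16 (R 4.3.3; TMM scaling, filterByExpr), in 1 fit of the 6 TOV-112D libraries, 1 of the 6 Saos-2 libraries and, between the lines, 1 of all 12. p-values were adjusted by Benjamini-Hochberg over all genes tested, called under 0.05, with SE and 95% confidence intervals from the same fit. CPM are TMM-scaled within that fit. The common coefficient of variation between replicates was 3.97% for TOV-112D and 13.0% for Saos-2. Alternatives were DESeq2 1.42.0, RLE scaling, no filter, unsummed identifiers, a transcript-length offset, all 12 libraries in 1 fit, a replicate block and leaving out each library. The test was checked on simulated data. Counting error limits the precision of low counts.

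The 10 genes and the lists were chosen with earlier results of these data known. Besides the 10 genes, the 3 largest rises and 3 largest falls among called list genes at 1 CPM or more, with no overlap of groups, were named, as well as cell markers. Values of 2 further genes of the naming rule are not reported here. Of the list, 2 symbols were older or newer names of genes already counted. Gene positions are from GENCODE 44. RefSeq starts of 9 genes matched, and BNIP3L was not among them. No protein sequences were used here.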

Additional observations from a re-analysis of the deposited data

How the results depend on the processing

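Among the 10 genes, calls of SQSTM1 and MAP1LC3B with the compounds, and of DRAM1, ULK1, OPTN, SQSTM1, TFEB and WIPI1 with p53-WT, held in every alternative that gave a value. MAP1LC3B and TFEB could not be fitted with the length offset, because their transcript sums did not equal the deposited counts. That fit gave 2 changed genes for UCI-1001, 3 for UCI-1014 and 3 between the compounds, and 13 changed among the other list genes for UCI-1001. Over all genes it called 665, 3960 and 1954 of 11975 tested, in place of 1944, 6622 and 4134 of 14980. The counts are therefore not over the same genes. With all 12 libraries in 1 fit, which shares the spread of Saos-2, 2 genes (SQSTM1 and MAP1LC3B) were called for UCI-1001 and 3 between the compounds. Other list genes numbered 5 for UCI-1001 and 38 for UCI-1014, and whole-table calls were 293, 3376 and 870 of 16803 genes tested. WIPI1 with UCI-1014 lost its call under DESeq2 (−0.27, adjusted p = 0.0627).

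Leaving out 1 library at a time, the other list genes changed with UCI-1001 numbered 14 to 28. In the same runs, values near 0 changed sign for OPTN (−0.02 to 0.08), WIPI1 (−0.10 to 0.04) and DRAM1 (−0.09 to 0.02) with UCI-1001, for OPTN (−0.08 to 0.02), BNIP3L (−0.07 to 0.09), ULK1 (−0.02 to 0.16) and DRAM1 (−0.05 to 0.01) with UCI-1014, for DRAM1 between the compounds (−0.04 to 0.06), for MAP1LC3B with p53-WT (−0.03 to 0.08) and for BNIP3L between the lines (−0.09 to 0.07). Other sign changes were ULK1 with UCI-1001 (0.0027, length offset), BNIP3L (−0.10, length offset; −0.06, 12 libraries) and DRAM1 (0.19, length offset) with UCI-1014, BNIP3L (−0.05, length offset) and DRAM1 (−0.03, 12 libraries) between the compounds, and BNIP3L between the lines (0.0034 with RLE, 0.0032 with DESeq2). No value with a changed sign was called, and the cause was not tested.

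Whether replicate numbers pair the libraries was not settled. Deviations of same-numbered libraries correlated at 0.205, 0.283 and 0.028 in Saos-2, where those of different numbers ran from −0.383 to 0.334. In TOV-112D the same-number values were 0.091, 0.00 and −0.17. With 2 libraries per group, the values for different numbers are the same with the sign reversed and add nothing. With a replicate block, 4, 6, 5 and 8 genes were called for UCI-1001, UCI-1014, the compound pair and p53-WT. Without it, 4, 6, 5 and 7 were called. In the block fits 6.12%, 21.6%, 14.6% and 33.8% of all genes were higher, and 3.6%, 19.8%, 9.71% and 33.1% lower. In the pair, ULK1 was lost and WIPI1 gained, and NBR1 was gained with p53-WT. A crossed pairing of the 2 compounds, chosen after seeing the data, gave 5, where 17.5% of all genes were higher and 13.3% lower.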
